A study of Arabidopsis thaliana with 16 samples.

Results

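The transcripts of 9 genes that *Arabidopsis thaliana* needs to make, trim and release seed coat mucilage were followed in developing seeds. The genes are *MYB5*, *MYB61*, *MUM4*, *GATL5*, *MUCI10*, *MUCI21*, *MUM2*, *SBT1.7* and *PER36*. They were chosen by name for their known role in mucilage, with earlier results of these data known, and they are 9 of the 27206 genes in the expression table. Seeds were dissected from siliques at 6 days after pollination (DAP), with 2 biological replicates per cross and poly(A) RNA-seq of each. Every mother was a male-sterile *pi-1* plant of the L*er* accession. The pollen donor was Col wild type (wt), *osd1*, or *phe1 phe2 osd1*, and these 3 names stand for the crosses below. Pollen of *osd1* is diploid, so both *osd1* crosses gave triploid seeds with a doubled paternal genome, while wt pollen gave diploid seeds. In *phe1 phe2 osd1* the pollen donor also lacked the MADS-box transcription factor PHE1 and its paralog PHE2. The *phe1* allele is a small CRISPR/Cas9 deletion with a premature stop, and the *phe2* allele is a T-DNA insertion. The mutant alleles come from the father, so the seed coat, which is made by the mother alone, had the same genotype in all crosses. Binding of PHE1 was measured in a separate experiment, by ChIP-seq with a GFP antibody in 2 DAP siliques of a *PHE1::PHE1–GFP* line, with 2 replicates.

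Mucilage is made in the outermost cell layer of the seed coat. After fertilization these cells secrete a pectin rich in rhamnogalacturonan I into the space under their outer wall, together with hemicelluloses and cellulose, and they then build a thickened column of wall in the cell centre. When the dry seed takes up water, the pectin swells, breaks the outer wall and surrounds the seed as a gel. The layer is part of the maternal seed coat, whose differentiation starts only when fertilization succeeds and depends on signals from the endosperm.

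Values are RPKM (reads scaled to transcript length and to the mapped reads of the library). The depth of the libraries, estimated from the spacing of low values, was 16.2 to 18.2 M reads. *PHE1* had an RPKM of 2.92 and 3.10 with wt pollen, 200 and 169 with *osd1* pollen, and 49.0 and 49.1 with *phe1 phe2 osd1* pollen. *PHE2* had 3.08 and 2.98, then 81.8 and 90.1, then 37.8 and 32.5, so the 3 crosses did not overlap for either mutated gene. Both were called higher in the triploid crosses than in wt. Between *phe1 phe2 osd1* and *osd1* the rank product called both lower (unadjusted permutation p = 0.00186 and 0.00664), and limma did not (log2 fold change -1.90 and -1.28, adjusted p = 0.0952 and 0.418). Across the tested genes, *osd1* replicate 1 correlated with the wt libraries at 0.81 and 0.83 on the log2 scale, and the other 3 triploid libraries at 0.86 to 0.88, a description over genes that share libraries, so this library lay farthest from wt. The seed compartments could be seen in all libraries by their markers. The sum over 8 markers of other seed coat layers was 970 to 1197 RPKM in wt and 1618 to 1971 RPKM in the 4 triploid libraries. The sum over 6 embryo markers was 206 to 214 RPKM in wt and 55.2 to 116 RPKM in the triploid libraries, with the lowest sum in *osd1* replicate 1. Most of this sum was *LEC1*, at 195 and 190 RPKM in wt and 47.2 to 110 in the triploid libraries. *STM*, *CUC2*, *WOX2* and *DRN* were at 1.89 RPKM or less in every library. The sum over 8 endosperm markers was 77.2 to 83.0 RPKM in wt and 52.7 to 87.4 RPKM in the triploid libraries. Its members moved in both directions, with 3 of 8 called higher by limma and 2 lower in each triploid cross. Of all tested genes, limma called 12.6% higher and 13.4% lower with *osd1* pollen, and 12.1% and 12.5% with *phe1 phe2 osd1* pollen. The early endosperm gene *AGL62* was at 0.108 and 0.1001 RPKM in wt and at 10.4 to 27.3 in the triploid libraries, while *ZOU*, needed for endosperm breakdown, was at 32.1 and 35.5 in wt and at 5.76 to 14.2 in the triploid libraries. *MINI3* was listed at 0 in wt replicate 1, as the embryo gene *DRN* was in *phe1 phe2 osd1* replicate 1. The part of these differences in the results on mucilage genes was not tested. In whole seeds, fewer cells of a type and less RNA per cell cannot be told apart.

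Of the 9 genes, *GATL5* and *MUM2* had lower transcript levels in both triploid crosses than in wt, by 4.91 and 3.09 times with *osd1* pollen and by 4.16 and 2.53 times with *phe1 phe2 osd1* pollen. *GATL5* encodes a galacturonosyltransferase-like protein of pectin synthesis and *MUM2* a beta-galactosidase that trims the side chains of rhamnogalacturonan I. *MUM4* and *SBT1.7* also lay below both wt libraries in all 4 triploid libraries, but limma's test did not call them. No member had a higher level in a triploid cross by either test, and none passed a test between *phe1 phe2 osd1* and *osd1*. The regulator *MYB5* overlapped between the crosses. For the regulator *MYB61*, *osd1* replicate 2 lay between the wt libraries, while both *phe1 phe2 osd1* libraries lay below them.

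**Figure D1:**
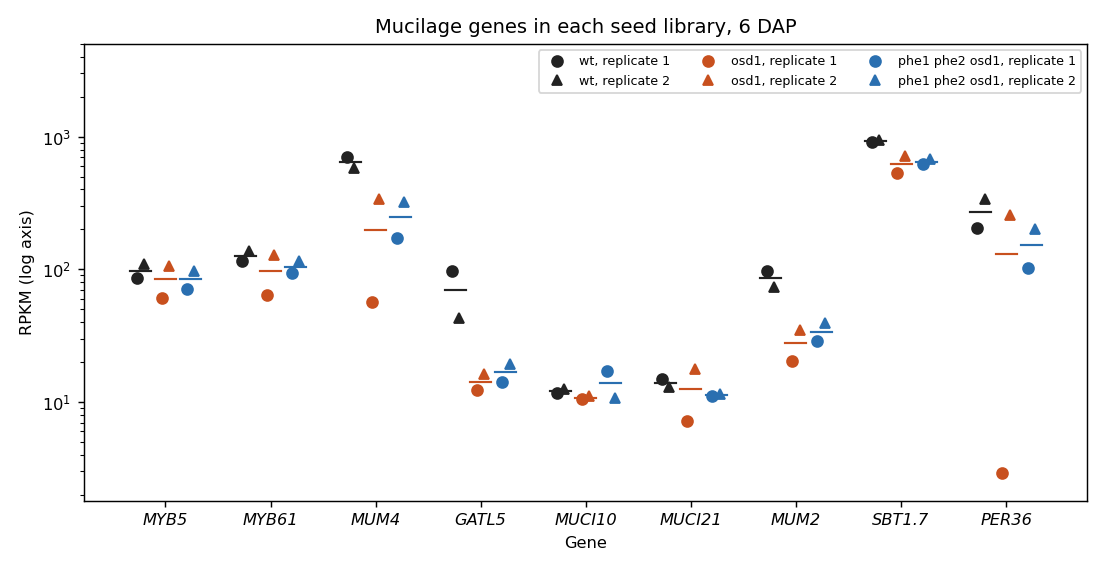
RPKM (log axis) of the 9 mucilage genes in each of the 6 seed libraries. Circles are replicate 1, triangles replicate 2 and short lines the mean of a cross (n = 2). All 4 triploid points lie below both wt points for *MUM4*, *GATL5*, *MUM2* and *SBT1.7*, and the lowest point of every gene is *osd1* replicate 1.

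All 9 genes passed the filter on low values, which asked for an average of 0.5 RPKM or more in any cross and which 20051 genes passed. In *osd1* vs. wt, limma called 2 of 9 members lower and 0 higher (adjusted p under 0.05), where 13.4% of all tested genes were called lower and 12.6% higher. The rank product, with an unadjusted permutation p under 0.05, called 4 lower (*GATL5*, *MUM2*, *MUM4* and *PER36*) and 0 higher, against 8.63% and 8.54% of tested genes. Against wt, limma again called *GATL5* and *MUM2* lower in *phe1 phe2 osd1* and 0 members higher, with 12.5% and 12.1% of tested genes called in these directions. The rank product called 3 lower (*GATL5*, *MUM2* and *MUM4*) and 0 higher, against 9.06% and 8.51%. After Benjamini-Hochberg adjustment the rank product called 0 members in either comparison. Both comparisons use the same 2 wt libraries, so their calls are not independent. The median log2 fold change of the 9 genes was -0.58 in *osd1* vs. wt and -0.52 in *phe1 phe2 osd1* vs. wt, and that of all tested genes was 0.0088 and 0.0066. The limma calls depended on the filter, without which 0 members passed in either comparison. Of all genes, 1973 and 1759 of 27206 were then called lower, against 2680 and 2511 of 20051 with the filter. The calls also changed when 1 library was left out, over all tested genes as well as the members. Such a fit leaves 1 library in a cross, so medians of the members are given here and not counts. In *osd1* vs. wt the median log2 fold change was -0.60 without wt replicate 1 and -0.57 without wt replicate 2. It was -0.11 without *osd1* replicate 1 and -0.98 without *osd1* replicate 2. In *phe1 phe2 osd1* vs. wt it was -0.53 and -0.50 without wt replicates 1 and 2. Without replicates 1 and 2 of *phe1 phe2 osd1* it was -0.39 and -0.58.

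**Figure D2:**
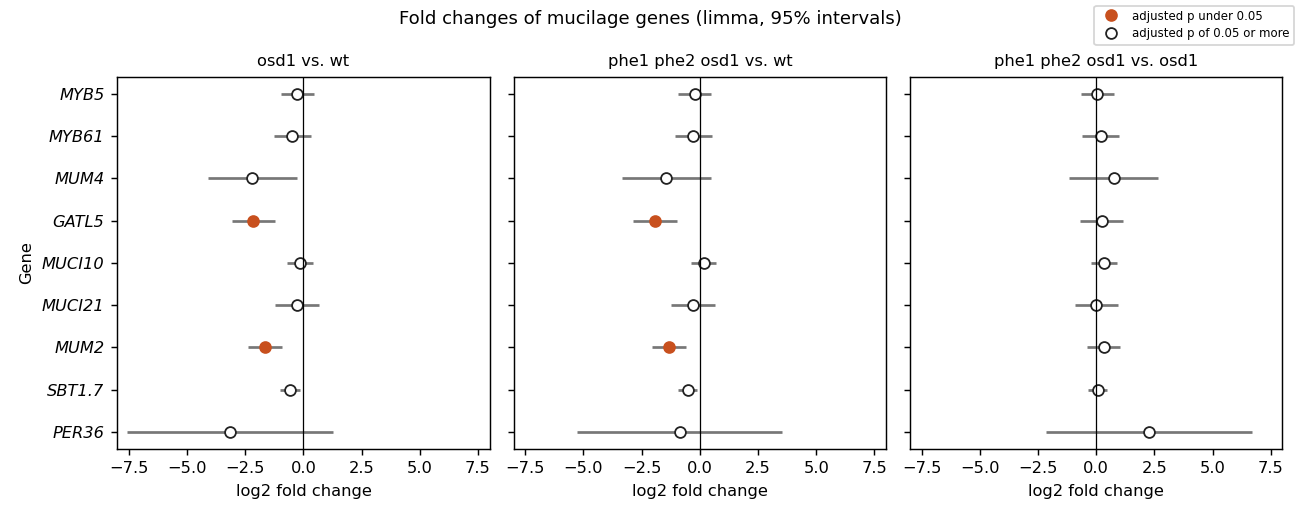
Log2 fold change of RPKM + 0.5 for each mucilage gene in the 3 comparisons, from limma over all 6 libraries. Points are estimates, lines are 95% intervals, and filled points have an adjusted p under 0.05. *GATL5* and *MUM2* are the filled points, in both comparisons with wt, and *PER36* and *MUM4* have the widest intervals.

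The regulators come first. *MYB5* (AT3G13540, chromosome 3, 4419960 to 4421751, forward strand of TAIR10) encodes a MYB transcription factor that acts with TTG1 and bHLH partners in the outer seed coat. Its RPKM was 85.6 and 109 with wt pollen, 61.2 and 106 with *osd1* pollen, and 71.6 and 96.6 with *phe1 phe2 osd1* pollen. The groups overlapped, since *osd1* replicate 2 lay between the wt libraries. The log2 fold change was -0.26 (SE 0.29, limma adjusted p = 0.555) in *osd1* and -0.22 (SE 0.29, adjusted p = 0.630) in *phe1 phe2 osd1*, both against wt. The sign of the first rested on 1 library, as the change was 0.14 without *osd1* replicate 1. *MYB5* lies wholly inside the annotated span of AT3G13530, a gene on the other strand. Counting by strand is not stated, so reads of both genes cannot be told apart in the overlap of 1792 bp. AT3G13530 was listed at 19.97 and 21.6 RPKM with wt pollen, 31.1 and 21.8 with *osd1* pollen, and 27.9 and 23.97 with *phe1 phe2 osd1* pollen.

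*MYB61* (AT1G09540, chromosome 1, 3086101 to 3087914, forward strand) encodes a second MYB factor, which is needed for mucilage to be deposited and released. It had 116 and 137 RPKM with wt pollen, 63.7 and 129 with *osd1* pollen, and 94.0 and 115 with *phe1 phe2 osd1* pollen. The lowest value was that of *osd1* replicate 1, and both *phe1 phe2 osd1* libraries also lay below wt, while *osd1* replicate 2 lay between the wt libraries. Against wt it changed by -0.47 on the log2 scale (SE 0.32, limma adjusted p = 0.330) and by -0.28 (SE 0.32, adjusted p = 0.574). Without *osd1* replicate 1, the first was 0.036.

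Among the genes of synthesis, *MUM4* (AT1G53500, chromosome 1, 19966944 to 19969757, reverse strand), also known as *RHM2*, encodes an enzyme that makes UDP-rhamnose, the sugar donor for rhamnogalacturonan I. Its RPKM was 701 and 581 with wt pollen, 57.0 and 341 with *osd1* pollen, and 173 and 319 with *phe1 phe2 osd1* pollen. All 4 triploid libraries lay below both wt libraries, but the *osd1* libraries differed from each other 5.99-fold. The mean was 641 ± 84.9 (SD, n = 2) for wt, 199 ± 201 for *osd1* and 246 ± 104 for *phe1 phe2 osd1*. Against wt these were log2 fold changes of -2.19 (SE 0.79, limma adjusted p = 0.0913) and -1.44 (SE 0.79, adjusted p = 0.235). The spread of the *osd1* libraries entered both tests through the shared fit. When only the 2 crosses were fitted, *phe1 phe2 osd1* vs. wt passed with an adjusted p of 0.0149. Without *osd1* replicate 1, the *osd1* change was -0.90 (adjusted p = 0.127), and without *osd1* replicate 2 it was -3.48 (limma adjusted p = 0.00165). *MUM4* overlaps a non-coding RNA gene on the other strand, AT1G07893, by 1439 bp.

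*GATL5* (AT1G02720, chromosome 1, 591682 to 594264, forward strand) had 97.0 and 43.2 RPKM with wt pollen, 12.4 and 16.1 with *osd1* pollen, and 14.3 and 19.4 with *phe1 phe2 osd1* pollen. The wt libraries differed 2.24-fold, and the highest triploid value was still under the lower wt value. The mean was 70.1 ± 38.0 (SD, n = 2) for wt, 14.3 ± 2.65 for *osd1* and 16.8 ± 3.64 for *phe1 phe2 osd1*. The log2 fold change was -2.16 (SE 0.38, 95% interval -3.09 to -1.22, limma adjusted p = 0.0101) in *osd1* and -1.93 (SE 0.38, -2.86 to -0.99, adjusted p = 0.0159) in *phe1 phe2 osd1*. Without wt replicate 1, the values were -1.58 (adjusted p = 0.0518) and -1.35 (adjusted p = 0.0761). Its position in the order of levels dropped from 1946 of 27206 genes for wt to 8555 for *osd1* and 7635 for *phe1 phe2 osd1*.

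*MUCI10* (AT2G22900, chromosome 2, 9744146 to 9746435, reverse strand) encodes a galactosyltransferase that decorates the glucomannan of mucilage. It was the member with the lowest mean in wt, at 11.7 and 12.6 RPKM, with 10.5 and 11.2 after *osd1* pollen, and 17.1 and 10.8 after *phe1 phe2 osd1* pollen. The *phe1 phe2 osd1* libraries lay on both sides of wt. Log2 fold changes were -0.16 (SE 0.23, 95% interval -0.71 to 0.39) and 0.16 (SE 0.23, -0.39 to 0.71), with limma adjusted p-values of 0.647 and 0.643. The sign of the second turned to -0.16 without *phe1 phe2 osd1* replicate 1. Both intervals reach no further than 0.71 in either direction.

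*MUCI21* (AT3G10320, chromosome 3, 3195314 to 3197457, reverse strand) encodes a glycosyltransferase that adds xylose branches and helps mucilage to stay on the seed. It had 14.8 and 13.1 RPKM with wt pollen, 7.14 and 17.8 with *osd1* pollen, and 11.2 and 11.6 with *phe1 phe2 osd1* pollen. The *osd1* libraries held both the lowest and the highest value of the 6, so their mean of 12.5 ± 7.51 (SD, n = 2) does not describe either. The log2 fold change was -0.29 (SE 0.38, limma adjusted p = 0.621) in *osd1*, and 0.34 without its replicate 1. In *phe1 phe2 osd1* it was -0.28 (SE 0.38, limma adjusted p = 0.632), and both libraries of that cross lay below both wt libraries.

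Of the genes that act on the wall after secretion, *MUM2* (AT5G63800, chromosome 5, 25530055 to 25535889, forward strand) had 97.7 and 73.6 RPKM with wt pollen, 20.3 and 35.05 with *osd1* pollen, and 28.6 and 39.2 with *phe1 phe2 osd1* pollen. The highest triploid value was 39.2, which lay below the lower wt value. The mean was 85.7 ± 17.1 (SD, n = 2) for wt, 27.7 ± 10.4 for *osd1* and 33.9 ± 7.45 for *phe1 phe2 osd1*. On the log2 scale *MUM2* fell, by a change of -1.65 (SE 0.30, 95% interval -2.37 to -0.93, limma adjusted p = 0.0106) in *osd1* and -1.33 (SE 0.30, -2.05 to -0.61, adjusted p = 0.0234) in *phe1 phe2 osd1*. Without *osd1* replicate 1, the *osd1* change was -1.26 and still passed. Without wt replicate 1, the values were -1.44 (adjusted p = 0.116) and -1.12 (adjusted p = 0.187), and without wt replicate 2 they were -1.85 (adjusted p = 0.0619) and -1.53 (adjusted p = 0.0957).

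*SBT1.7* (AT5G67360, chromosome 5, 26871891 to 26874850, reverse strand), also named *ARA12*, encodes a subtilisin-like protease needed for mucilage release. It had the highest RPKM of the 9 genes, with 919 and 938 with wt pollen, 536 and 718 with *osd1* pollen, and 620 and 678 with *phe1 phe2 osd1* pollen. The groups did not overlap with wt. The mean of 929 ± 13.3 (SD, n = 2) in wt was 1.48 times that in *osd1* and 1.43 times that in *phe1 phe2 osd1*. Log2 changes of -0.58 (SE 0.17, limma adjusted p = 0.0532) and -0.52 (SE 0.17, adjusted p = 0.0762) lay just outside the threshold, while *MUM2* and *GATL5* were inside it. Quantile normalization gave -0.79 (adjusted p = 0.0163) and -0.75 (adjusted p = 0.0206).

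*PER36* (AT3G50990, chromosome 3, 18943135 to 18944811, forward strand) encodes a secreted peroxidase that loosens the outer wall so that mucilage can break through. Its RPKM was 206 and 337 with wt pollen, 2.93 and 257 with *osd1* pollen, and 103 and 202 with *phe1 phe2 osd1* pollen. At the estimated depth the lowest of these stood for about 64.6 reads, against about 5535 in the other *osd1* library. The *osd1* cross overlapped with wt, since *osd1* replicate 2 lay between the wt libraries. Both *phe1 phe2 osd1* libraries lay below both wt libraries. The log2 fold change in *osd1* was -3.15 (SE 1.81, limma adjusted p = 0.251), and it was -0.039 without replicate 1 and -6.27 (adjusted p = 0.000541) without replicate 2, so it rested on 1 library. In *phe1 phe2 osd1* it was -0.87 (SE 1.81, adjusted p = 0.759).

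In wt, the order of mean RPKM, a level scaled to transcript length, was *SBT1.7* (929), *MUM4* (641), *PER36* (272), *MYB61* (126), *MYB5* (97.4), *MUM2* (85.7), *GATL5* (70.1), *MUCI21* (13.9) and *MUCI10* (12.1). The wt libraries of *MUM2* overlapped with those of its neighbours *MYB5* and *GATL5* in this order, and those of *MYB61* lay above *MYB5*. *MUCI21* and *MUCI10* lay close, at 13.1 RPKM or more and 12.6 RPKM or less. *SBT1.7* was the highest of the 9 in every library. In all 4 triploid libraries *GATL5* lay below *MYB5*, *MYB61* and *MUM2*. It also lay below these genes in wt replicate 2, and below *MYB61* and *MUM2*, but not *MYB5*, in wt replicate 1.

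The 4 members for which all 4 triploid libraries lay below both wt libraries were *MUM4*, *GATL5*, *MUM2* and *SBT1.7*, and 28.6% of all tested genes had this pattern. For 0 members did all 4 lie above. The spread within the *osd1* cross touched the whole group. *osd1* replicate 1 had the lowest value of the 6 libraries in 9 of 9 members, where it was the lowest library for 18.7% of tested genes. The summed RPKM of the 9 genes was 771 there, 1632 in *osd1* replicate 2, 1132 and 1491 in *phe1 phe2 osd1*, and 2250 and 2246 in wt. On the log2 scale, replicate 2 exceeded replicate 1 of *osd1* by a median of 0.79 over the members, with a range of 0.09 for *MUCI10* to 6.23 for *PER36*. The median absolute difference over all tested genes was 0.26 between these libraries. *PER36* had the 3rd highest such difference of 20051 genes, and *MUM4* the 69th. Replicate 2 of *phe1 phe2 osd1* was higher in 8 of 9 members, by a median of 0.43, and *MUCI10* was lower. In wt, replicate 2 was higher in 5 of 9. Replicates are separate pools of siliques, and the labels give no reason for the difference, which was not tested.

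**Figure D3:**
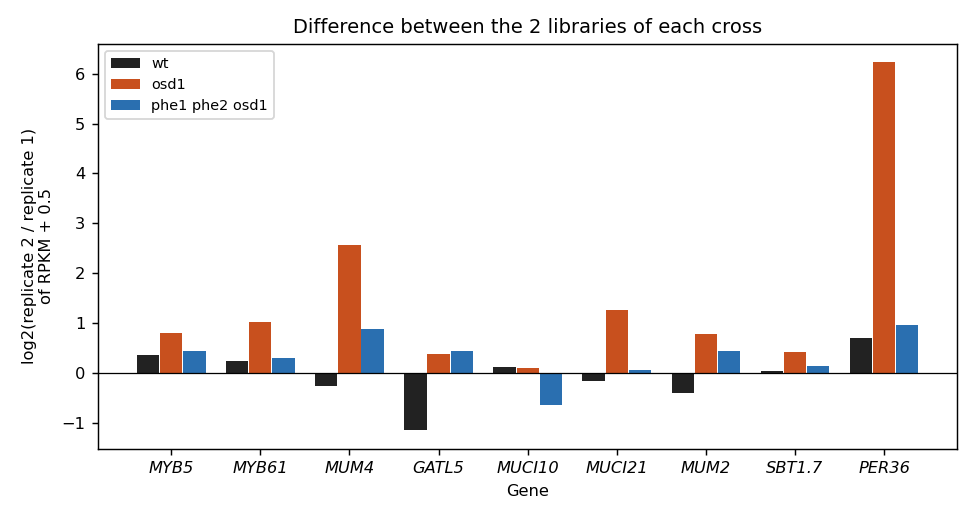
Log2 ratio of replicate 2 to replicate 1 (RPKM + 0.5) for each mucilage gene within each cross. Bars above 0 mean a higher level in replicate 2. All 9 *osd1* bars are above 0 and the *PER36* bar reaches 6.23, while the wt bars lie on both sides of 0.

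The marker lists did not differ one way between the *osd1* libraries. The embryo marker sum was 55.2 RPKM in *osd1* replicate 1 and 116 in replicate 2, a difference carried by *LEC1* with 47.2 and 110 RPKM, while *STM*, *CUC1*, *CUC2* and *DRN* were higher in replicate 1. The endosperm marker sum was 87.4 and 56.8 RPKM, and that of the other seed coat markers 1685 and 1971 RPKM. No embryo or endosperm marker was listed at 0 in the *osd1* libraries. Of the 8 seed coat markers, *TT12*, *TT1*, *TT16* and *AHA10* were higher in replicate 1, and *TT10*, *BAN*, *DFR* and *LDOX* were higher in replicate 2. The pectin methylesterase inhibitor *PMEI6*, which is needed for mucilage release and was singled out here after its values were seen, had 0.697 and 230 RPKM in *osd1*, 80.8 and 205 in *phe1 phe2 osd1*, and 467 and 486 in wt.

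No member passed a test for the paternal loss of *PHE1* and *PHE2* in triploid seeds. In *phe1 phe2 osd1* vs. *osd1*, limma called 0 of 9 members lower and 0 higher, and it called 0.0% of the 20051 genes in each direction. At an unadjusted p under 0.05 it held 554 genes, none of them a member. The rank product called 0 members, where it called 4.36% of tested genes higher and 4.17% lower. All 9 log2 fold changes were above 0 with a median of 0.23, and the adjusted p was 1 for each. Without *osd1* replicate 1 the median was -0.31, so the common direction rested on that library. The 95% intervals were widest for *PER36* (-2.13 to 6.70) and *MUM4* (-1.17 to 2.66), and for *GATL5* and *MUM2* they were -0.71 to 1.16 and -0.40 to 1.04. The narrowest, for *SBT1.7*, was -0.36 to 0.48. Differences of 2 times were therefore within the interval of 4 of these 5 genes, and the data do not show that the crosses had equal levels.

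The profile of a gene over the 6 libraries, centred on the log2 scale, was compared with the mean profile of the 9 members. The 5 closest genes that are not members were AT1G49580, annotated as a calcium-dependent protein kinase family protein, AT1G07280, a tetratricopeptide repeat protein, *GATA6*, a GATA transcription factor, AT1G62050, an ankyrin repeat protein, and *GXMT1*, a glucuronoxylan methyltransferase. Their root mean square difference from that profile was 0.09 to 0.11 on the log2 scale, where that of the members themselves was 0.34 for *MUM2* to 1.65 for *PER36*. AT1G49580, for example, had 210 and 220 RPKM with wt pollen, 56.2 and 172 with *osd1* pollen, and 107 and 157 with *phe1 phe2 osd1* pollen. The mean profile thus has high wt libraries, a low *osd1* replicate 1 and the 3 other libraries between. Its centred value in *osd1* replicate 1 was -1.31. *PER36* and *MUM4* had -4.93 and -2.27 there, and the other members -0.21 to -1.04. The 5 genes were picked as the closest of all tested genes outside the list. That they lie closer than any member follows from this choice and says nothing about the members.

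A further 44 genes of mucilage regulation, synthesis, cellulose and release were listed by role, and 42 of them were tested. In *osd1* vs. wt limma called 12 lower and 5 higher, and in *phe1 phe2 osd1* vs. wt 8 lower and 2 higher, where 13.4% and 12.6% of all tested genes were called in the first comparison and 12.5% and 12.1% in the second. The rank product called 5 lower and 2 higher in each. It called 8.63% of tested genes lower and 8.54% higher in the first comparison, and 9.06% and 8.51% in the second. Between the triploid crosses limma called 0, and the rank product called 1 higher, *PMEI6*, where it called 4.36% of tested genes higher. The median log2 fold change of the 42 was -0.31 and -0.35 against wt. As for the members, the calls changed when 1 library was left out, and those over all tested genes did too. Without wt replicate 1 the median of the 42 was -0.32 in *osd1* vs. wt and -0.28 in *phe1 phe2 osd1* vs. wt. Without *osd1* replicate 1 it was -0.16 in *osd1* vs. wt.

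**Figure D4:**
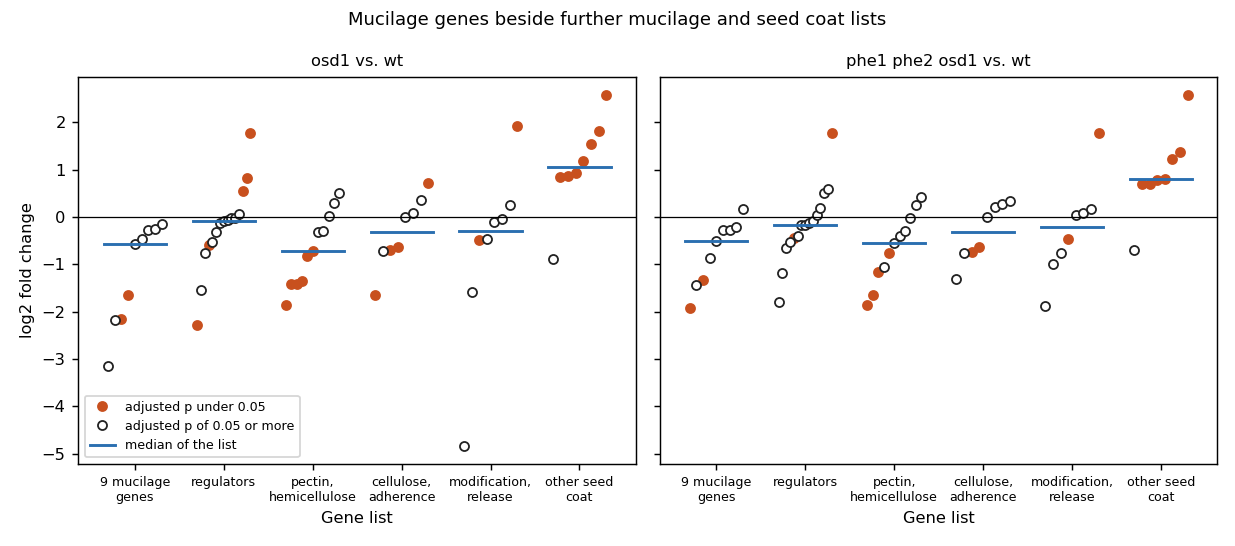
Log2 fold changes against wt for the 9 mucilage genes, 4 lists of further mucilage genes and 8 other seed coat markers, in *osd1* and in *phe1 phe2 osd1*. Each point is a gene, filled where limma's adjusted p is under 0.05, and blue lines are list medians. Pectin and hemicellulose genes hold the most filled points below 0 among the further mucilage lists, and 7 of 8 other seed coat markers lie above 0.

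Pectin and hemicellulose synthesis had the most calls among these lists, with 6 of 11 genes lower in *osd1* and 4 of 11 in *phe1 phe2 osd1*, and 0 higher, against 13.4% and 12.5% of all tested genes called lower. Leaving out *osd1* replicate 1 left 2 of 11 lower in *osd1*, and leaving out wt replicate 1 left 0 in either cross. *URGT2*, a Golgi transporter of UDP-rhamnose and UDP-galactose, had 25.8 and 13.2 RPKM with wt pollen, 6.67 and 6.47 with *osd1* pollen, and 3.97 and 5.69 with *phe1 phe2 osd1* pollen. Its log2 fold change was -1.43 (limma adjusted p = 0.0253) in *osd1* and -1.85 (adjusted p = 0.0111) in *phe1 phe2 osd1*, and the first was -1.45 (adjusted p = 0.0587) without *osd1* replicate 1. AT5G15740, annotated as an O-fucosyltransferase family protein, had 164 and 88.6 RPKM in wt and 23.6 to 51.9 in the triploid libraries. AT5G04160, a nucleotide-sugar transporter family protein, fell in *osd1* by 1.42 on the log2 scale, and *MSR1*, which promotes mannan synthesis, by 1.36. *IRX14*, a xylan synthesis gene, and *CSLA2*, which makes the glucomannan of mucilage, fell there by 0.83 and 0.73. Without *osd1* replicate 1, AT5G15740 (adjusted p = 0.0843), *IRX14* (adjusted p = 0.0594) and *CSLA2* (adjusted p = 0.111) were not called in *osd1*, and the change of AT5G04160 was -0.84 (adjusted p = 0.00615).

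Of the genes of cellulose and adherence, 3 of 8 were lower in *osd1* and 2 in *phe1 phe2 osd1*, and 0 in either without wt replicate 1. Of all tested genes, limma called 13.4% and 12.5% lower in these comparisons. *CESA5*, the cellulose synthase subunit that holds mucilage on the seed, had 80.5 and 73.0 RPKM with wt pollen, 15.2 and 38.6 with *osd1* pollen, and 28.5 and 33.3 with *phe1 phe2 osd1* pollen. It passed in *osd1* (log2 fold change -1.64, limma adjusted p = 0.0294) and not in *phe1 phe2 osd1* (-1.30, adjusted p = 0.0609). With *osd1* replicate 1 left out, these were -0.98 (adjusted p = 0.00865) and -1.30 (adjusted p = 0.00121). *CSI1*, which links cellulose synthases to microtubules, was lower in both, by 0.71 and 0.74 on the log2 scale. In this list 1 of 8 genes was called higher in *osd1*, against 12.6% of all tested genes. It was the adherence gene *SOS5* (log2 fold change 0.71), named here after its values were seen.

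Of the 15 regulators tested, 2 were called lower and 3 higher in *osd1*, and 1 lower and 1 higher in *phe1 phe2 osd1*, shares close to or below those of all tested genes except for the 3 higher. *BLH4*, a homeodomain factor, had 46.6 and 37.5 RPKM with wt pollen, 3.89 and 16.9 with *osd1* pollen, and 10.0 and 13.4 with *phe1 phe2 osd1* pollen. Its log2 fold change was -2.28 (limma adjusted p = 0.0374) in *osd1* and -1.81 (adjusted p = 0.0761) in *phe1 phe2 osd1*. When *osd1* replicate 1 was left out, these were -1.28 (adjusted p = 0.0134) and -1.81 (adjusted p = 0.00156). *STK*, a MADS-box gene of ovule and seed coat identity, rose from 68.5 and 87.9 RPKM with wt pollen to 267 and 266 with *osd1* pollen and to 240 and 292 with *phe1 phe2 osd1* pollen, a log2 change of 1.77 and 1.76. *AP2*, which the outer seed coat needs to differentiate, rose by 0.83 in *osd1* on the log2 scale. Among the genes of wall modification and release, AT1G56100, annotated in the pectin methylesterase inhibitor superfamily, rose from 1166 and 1522 RPKM in wt to between 4410 and 5607 in the triploid libraries. In this list 1 of 8 genes was called lower and 1 higher in each triploid cross, close to the share of all tested genes.

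The 8 markers of other seed coat cells, chiefly of the tannin layer, were mostly higher in the triploid crosses. In each of these limma called 7 of 8 higher than in wt and 0 lower. The share of all tested genes called higher was 12.6% with *osd1* pollen and 12.1% with *phe1 phe2 osd1* pollen. For lower calls the shares were 13.4% and 12.5%. The median log2 fold change of the 8 markers was 1.05 and 0.79, in the same order. The exception was *TT10*, with 170 and 167 RPKM in wt and 59.9 to 139 in the triploid libraries (log2 fold change -0.88 and -0.71, not called). The tannin transporter *TT12* had 5.75 and 5.99 RPKM in wt and 25.6 to 54.7 in the triploid libraries. Without wt replicate 1 the calls of these markers changed, as did those over all tested genes. Their median log2 fold change was then 0.88 in *osd1* and 0.65 in *phe1 phe2 osd1*. The list was not chosen for the mucilage layer, and its part in the lower levels of *GATL5* and *MUM2* was not tested.

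PHE1-GFP binding was compared by position. The peak lists give start and end only, and the 2 replicates shared 2510 regions. A region was given to the gene with the nearest transcription start site (TSS), if its centre lay from 1500 bp upstream to 500 bp downstream. Of the 9 members, *MUM4* and *MYB5* had a shared region, where 4.79% of the 37899 annotated genes had one. The annotated genes include non-coding RNA genes and pseudogenes, while all 9 members are protein coding. *GATL5* and *MUM2* had none within this window, and their nearest shared regions were centred 36490 and 6825.5 bp upstream. For *MYB61* the nearest peak of replicate 2 alone was centred 1553 bp upstream, just outside the window. ChIP was done in whole siliques of selfed plants at 2 DAP, and the study describes expression of PHE1-GFP in this line as confined to the endosperm.

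**Figure D5:**
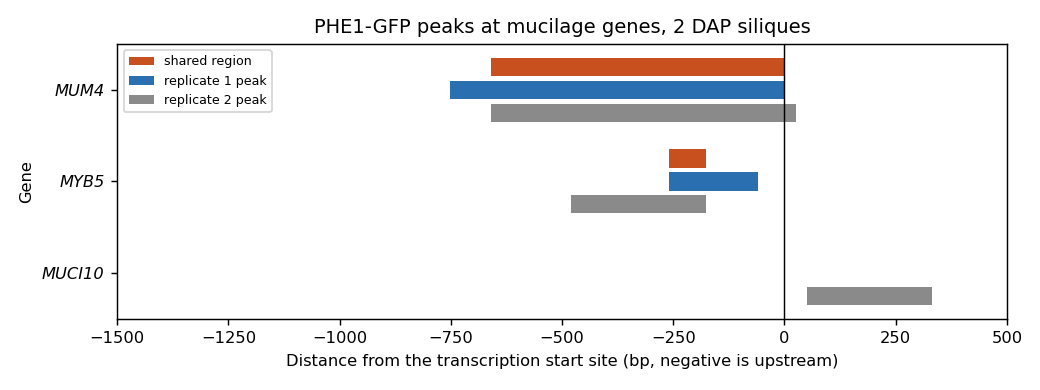
Position of PHE1-GFP peaks around the TSS of 3 mucilage genes, in bp from the TSS (negative is upstream), for replicate 1, replicate 2 and the region they share. *MUM4* has a shared region of 661 bp that ends at the TSS, *MYB5* one of 82 bp, and *MUCI10* a replicate 2 peak only, centred at 191 bp.

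The region at *MUM4* lay on chromosome 1 from 19969757 to 19970417, was 661 bp long and was centred 330 bp upstream of the TSS. It held 1 exact CArG-box, the site type that MADS-box factors bind, starting 547 bp upstream. An exact CArG-box was found in 11.5% of all shared regions, and in 18.6% of those of at least 600 bp. The stretch of the region from 576 to 277 bp upstream is shown because it holds this match, in capitals, and lies between genes (TAIR10.1, chr1:19970034-19970333, reverse strand). It is 69.3% A and T.

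MUM4 region: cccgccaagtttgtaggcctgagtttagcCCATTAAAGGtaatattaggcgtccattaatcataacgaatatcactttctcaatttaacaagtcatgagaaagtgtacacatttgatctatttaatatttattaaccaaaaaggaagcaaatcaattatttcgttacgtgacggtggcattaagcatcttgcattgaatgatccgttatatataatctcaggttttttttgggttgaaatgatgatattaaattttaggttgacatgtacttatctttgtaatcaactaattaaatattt

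The region at *MYB5* lay on chromosome 3 from 4419702 to 4419783 and was centred 217.5 bp upstream. It had no exact CArG-box. The closest sequences had 2 mismatches, with 3 such matches, and the one nearest to the centre of the region is shown in capitals with 10 bases on each side (TAIR10.1, chr3:4419734-4419763, forward strand). The shared region was lost when 0.5 of the shorter peak had to be shared and when only peaks wider than the median were used, and the *MUM4* region was kept in both.

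MYB5 region: ttaatcatctATTTAAAAGGtggtccaaat

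*MUCI10* had a replicate 2 peak of 281 bp centred 191 bp downstream of its TSS, but no replicate 1 peak there. Of the other 44 mucilage genes, 6 had a shared region. They were *AP2* (centred 481.5 bp upstream), *MYB23* (1260.0 bp), AT1G76880 (1271.5 bp), *URGT2* (35 bp), *CSLA2* (135.0 bp) and *MSR2* (207.5 bp). Of these, *URGT2* and *CSLA2* were lower in *osd1* than in wt, *AP2* was higher, and *MYB23* was listed at 0 RPKM in all 6 libraries. *MSR2*, which promotes mannan synthesis, and AT1G76880, annotated as a homeodomain-like protein, were not called in either triploid cross.

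The promoters of the members, from 250 bp upstream to 50 bp downstream of the TSS, were searched on both strands for 5 motifs. The exact CArG-box was in 0 of 9, where 2.69% of 37897 promoters held it, and the L1-box of epidermal genes, TAAATGTA, in 0 of 9 (3.18%). These 37897 promoters include those of non-coding RNA genes and pseudogenes. The W-box core TTGAC was in 4 of 9 (49.5%), the G-box CACGTG in 1 of 9 (6.46%), and the AC element ACCNANC, bound by MYB factors, in 5 of 9 (32.6%). The promoters of the 2 called genes are shown from 250 bp upstream to the base before the TSS, since both genes were called lower. They shared none of the motifs searched. That of *GATL5* (TAIR10.1, chr1:591432-591681, forward strand) has 1 AC element, in capitals, 165 bp upstream. That of *MUM2* (chr5:25529805-25530054, forward strand) has W-box cores, in capitals, at 236 bp upstream on its own strand and at 86 bp on the other. A match is a description of the letters and not a binding site.

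GATL5 promoter: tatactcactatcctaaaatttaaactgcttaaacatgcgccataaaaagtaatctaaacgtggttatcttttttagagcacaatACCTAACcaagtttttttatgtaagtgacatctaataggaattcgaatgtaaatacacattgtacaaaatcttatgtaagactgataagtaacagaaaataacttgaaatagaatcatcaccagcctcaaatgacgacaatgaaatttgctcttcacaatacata

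MUM2 promoter: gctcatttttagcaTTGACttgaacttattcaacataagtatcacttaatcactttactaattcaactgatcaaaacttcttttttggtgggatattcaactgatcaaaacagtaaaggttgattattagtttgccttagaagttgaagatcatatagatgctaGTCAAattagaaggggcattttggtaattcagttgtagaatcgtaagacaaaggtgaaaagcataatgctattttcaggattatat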

How the data were processed

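Seeds at 6 DAP from 3 crosses were measured by RNA-seq (2 libraries each) and PHE1-GFP binding in 2 DAP siliques by ChIP-seq (2 replicates). The authors mapped RNA reads with TopHat 2.1.0 to TAIR10 with rRNA genes masked, and deposited RPKM that GFOLD computed. RPKM is scaled by mapped reads and was not scaled further. Reads of the L*er* mother were mapped to the Col genome, which can lower values of genes that differ between the accessions. The deposited peak files hold start and end positions only, counted from 0, with no height or score. The authors called them with MACS2 2.1.1 against each replicate's input after mapping with Bowtie 1.2.2. Coordinates are printed counted from 1, and all 6 sample columns were used, with 0 left unused.

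The members and gene lists were chosen with earlier results of these data known. Genes that averaged 0.5 RPKM or more in any cross were tested (20051) on log2(RPKM + 0.5), a scale that understates changes of low genes, with limma 3.58.1 in R 4.3.3 (eBayes with trend, all 3 crosses in one fit, Benjamini-Hochberg adjustment over all tested genes). The rank product of the study's methods was coded anew (4 pairs of libraries, zeros set to 0.0001, 100 permutations, one-sided). With 2 libraries a cross, standard errors draw on all genes, and p-values measure the spread between separate pools of siliques. Counts behind the RPKM were not recovered: 33.4 to 37.2% of low values lay within 0.05 of a whole read at the estimated depth of 16.2 to 18.2 M reads, where chance gives 10.0%. Of 27206 gene IDs, 26719 were in the annotation. Sequences and motifs come from the RefSeq TAIR10.1 assembly, whose chromosomes 1 to 5 have TAIR10 coordinates. The limma, rank product, peak and motif steps were tested on simulated data. Other steps ran in Python 3.11.15 with pandas 2.3.3 and numpy 2.4.6, and figures in matplotlib 3.10.9.

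All 9 members are named. Of the other mucilage genes, those named are the 12 with the largest log2 fold change among those limma called against wt, and those with a shared PHE1 region, while *PMEI6* and *SOS5* were named after their values were seen. Likeness names the 5 closest genes. Alternatives covered the pseudocount, the filter, scaling, the samples fitted, the trend, a replicate block, each library left out and, for peaks, the overlap, the width, each replicate and the TSS rule. The 3x endosperm ChIP samples were not analysed here.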

Additional observations from a re-analysis of the deposited data

How the results depend on the processing

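The limma calls rested on few libraries. Leaving out one library at a time, the members called lower ranged from 0 to 7 in *osd1* vs. wt and from 0 to 4 in *phe1 phe2 osd1* vs. wt, and those called higher in *phe1 phe2 osd1* vs. *osd1* from 0 to 1. For the rank product the ranges were 1 to 4, 0 to 2 and 0 to 2, and 0 to 1 lower in the last comparison. Without the filter on low values, limma called 0 members lower in both comparisons with wt. With only the 2 crosses compared in the fit, it called 4 lower in *phe1 phe2 osd1* vs. wt. With Benjamini-Hochberg adjustment the rank product called 0 lower in both comparisons with wt, and with 0.5 added to every value it called 2 higher in *phe1 phe2 osd1* vs. *osd1*. Why the calls changed was not tested. Requiring 0.5 of the shorter peak to be shared, or peaks wider than the median, left 1 member with a PHE1 region, and with each ChIP replicate alone it was 2 and 3.

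The sign of single fold changes turned only when 1 library was left out, so the lowest and highest log2 values over those settings are given. In *osd1* vs. wt they were -0.65 and 0.14 for *MYB5*, -0.98 and 0.036 for *MYB61*, and -0.92 and 0.34 for *MUCI21*, with the value above 0 each time from the fit without *osd1* replicate 1. For *MUCI10* in *phe1 phe2 osd1* vs. wt they were -0.16 and 0.48. Between the triploid crosses they were -0.064 and 0.71 for *MUM2*, -0.54 and 2.03 for *MUM4*, -0.35 and 0.44 for *MYB5*, -0.31 and 0.70 for *MYB61*, -0.15 and 0.27 for *SBT1.7*, -0.83 and 5.40 for *PER36*, -0.0021 and 0.64 for *MUCI10*, and -0.62 and 0.63 for *MUCI21*. The lowest of these came without *osd1* replicate 1, except for *MUCI10*, where it came without *phe1 phe2 osd1* replicate 1. The sign of *GATL5*, *MUM2*, *MUM4*, *SBT1.7* and *PER36* against wt held in all 15 alternatives of each comparison.

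Samples were not treated as paired by replicate number. Deviations of same-numbered libraries correlated at -0.0040 for wt and *osd1* and at -0.011 for wt and *phe1 phe2 osd1*. For *osd1* and *phe1 phe2 osd1* the correlation was 0.17. Correlations over genes cannot show whether same-numbered libraries were prepared together. With a replicate block, limma called 3 members lower in *osd1* vs. wt, adding *SBT1.7* (adjusted p = 0.0410), and 2 in *phe1 phe2 osd1* vs. wt, and the rank product called 1 higher in *phe1 phe2 osd1* vs. *osd1*. Counting error weighs most on *PER36* in *osd1* replicate 1, at about 64.6 reads.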
